A study of Saccharomyces cerevisiae with 32 samples.

Results

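At 237 of the 7047 regions of an intergenic array of Saccharomyces cerevisiae, the mean heat shock ratio of TAF1 was at most -0.3 on the log2 scale while that of Spt3 was 0 or above. These regions were chosen by those TAF1 and Spt3 values themselves, from the 5207 regions that had at least 3 values for both factors and did not lie between convergent genes. TAF1 and Spt3 are therefore described below without a test, and the tests concern TBP, Mot1, Bdf1 and RNA, which were measured on other arrays. The tests of TBP, Mot1 and Bdf1 still share 1 estimate of spread and of channel effect per region with the TAF1 and Spt3 arrays. Of the 237 regions, 99 could be placed at the start of 1 gene and 66 between divergent genes, at the start of 2. A further 71 carried no gene name and 1 could not be placed. A region between divergent genes is called by both gene names joined by a hyphen, and its single probe does not separate the pair of promoters.

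TBP, the TATA-binding protein, reaches yeast promoters mainly through a pair of coactivator complexes. TFIID holds TBP together with its associated factors, TAF1 among them, and SAGA contacts TBP through Spt3. Mot1 is an ATPase that takes TBP off DNA, and Bdf1 binds acetylated histones through its bromodomains and associates with TFIID. In yeast most housekeeping promoters are known to rely on TFIID and many stress-inducible ones on SAGA, and genes of ribosome assembly are known to be repressed quickly after a rise in temperature.

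All cultures grew in YPD at 25 °C to an OD600 of about 0.8 and then spent 15 min at 37 °C or at 25 °C (mock), each after an equal volume of medium of that temperature was added. For chromatin immunoprecipitation (ChIP) they were returned to 25 °C while fixed in 1% formaldehyde for 2 h, so the factors were crosslinked during the return. Strains carried an HA tag on TBP, TAF1, Spt3, Mot1 or Bdf1, and a strain labelled Null served as the background of the precipitation. Each of these 6 groups had 4 arrays, on which heat shocked and mock DNA shared the 2 channels. Another 4 arrays compared the input DNA of the TAF1 and Spt3 strains. RNA came from the Null strain (BY4741) on 4 gene arrays, 2 of heat shocked against mock cells and 2 of mock cells in both channels. The replicates are lettered A to D, and B to E for Spt3. No label says that they came from separate cultures, so the p-values measure the spread between arrays, which may be technical.

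All values are log2 ratios of heat shocked over mock cells after each array was centred on its median, so 0 is the array's typical region and not an absolute level. No source used here names the numerator, and the direction used is the likely one: the 39 tested chaperone promoters had median TBP ratios of 0.48, -0.32, 0.31 and -0.13 as deposited on arrays A to D, with the sign following the channel of the heat shocked DNA. Under the opposite reading all ChIP signs turn, and a different set of 234 regions, with 0 in common, meets the rule. The ChIP arrays held 6644 to 6953 values each. Between arrays of opposite channel order, correlations over all regions as deposited ran from 0.19 to 0.46 for TAF1 and from 0.14 to 0.38 for Spt3, a channel effect that cancels in a mean of 2 arrays of each order but not where a value is missing.

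The placed promoter regions lay along the edges of the rule more than far inside it. Their mean TAF1 ratio had a median of -0.48 and reached -1.47, and 54 of them were above -0.4. Their mean Spt3 ratio had a median of 0.13 and reached 1.56, and 112 of them were under 0.2. Just inside the TAF1 threshold lay ACK1-MRPL11 at -0.302 and PEX21 at -0.302, and just outside it AIM20 and MAK11, both at -0.30. Just inside the Spt3 threshold lay DBP7-RPC37 at 0.00088, and just outside it SAS2-ECM16 at -0.00071. Over all 5207 regions that could enter, 56.8% had a mean Spt3 ratio of at least 0, and of the 582 with TAF1 at or below -0.3 it was 40.7%.

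**Figure D1:**
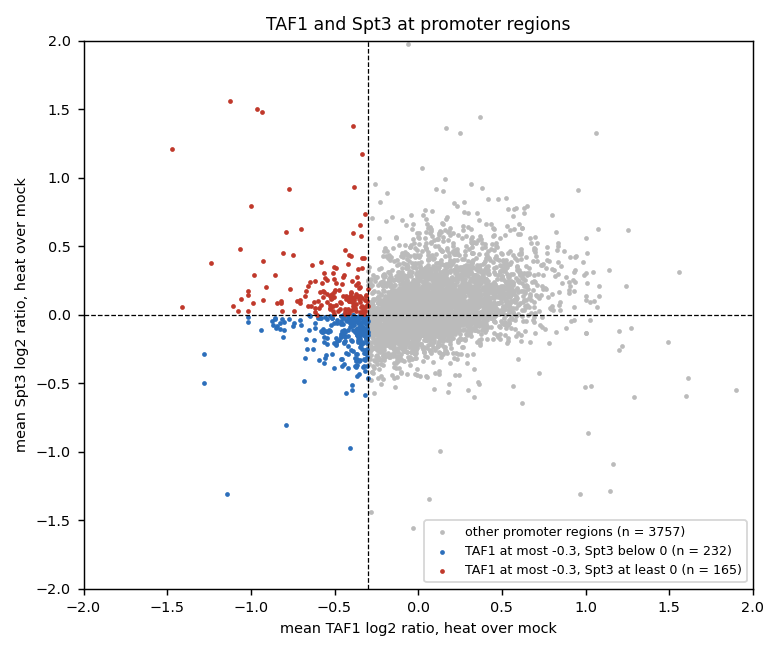
Mean TAF1 (horizontal) and mean Spt3 (vertical) log2 ratios of heat shocked over mock cells for promoter regions, with the thresholds of the rule as dashed lines. The regions with low TAF1 and Spt3 at or above 0 (red) continue into the 232 with low TAF1 and Spt3 below 0 (blue) without a gap, and 10 regions lie outside the plotted range of 2 on either side.

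The TAF1 values were lowest on arrays A and B. The medians over the placed promoter regions were -0.61, -0.78, -0.27 and -0.31 on TAF1 arrays A to D and 0.24, 0.11, 0.11 and 0.10 on Spt3 arrays B to E. Those arrays also had the widest spreads of their groups over all regions, with median absolute deviations of 0.45 and 0.46 for TAF1 arrays A and B against 0.29 for C and D, and 0.48 for Spt3 array B against 0.21 to 0.24 for C to E. Of the placed regions, 16 lacked a value. Of those with all 8 values, 82.6% had TAF1 below 0 on all 4 arrays and 26 did not. In 31 of them (20.8%) Spt3 was above 0 on all 4, and in 85 each TAF1 value lay below each Spt3 value. The rule chose regions by these same values, which favours such a separation, and other regions were not counted in this way. When 1 TAF1 or Spt3 array at a time was left out, 58 placed regions met the rule in all 8 cases.

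The members without a gene name were of another quality. Within a region the SD over the arrays with a value had a median of 1.81 for TAF1 and 1.55 for Spt3. In all placed members it was 0.37 and 0.23. Over all placed promoters that could enter it was 0.22 and 0.19, so the placed members also varied more than promoters at large. Of the members without a gene name, 30 had all 8 values. Among the 15 members of lowest mean TAF1, 13 had no gene name and 13 lacked a value. The remaining named ones were PPH3, a protein phosphatase gene, with 3 values for either factor, and ILT1, with 3 for Spt3. For this reason the regions described first are the lowest in TAF1 among placed members that were tested and had all 8 values, an order chosen with the values in view.

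Among the gene lists, ribosome assembly held the most members. The list of ribosome biogenesis genes gave 110 promoter regions, of which 39 were members, 37 had low TAF1 with Spt3 below 0 and 34 had TAF1 above the threshold. The 39 were 23.6% of the placed members, while the list covers 2.65% of all placed promoters. Further members came from the lists of RNA polymerase I and III subunits with 7 of 33 regions, translation factors with 7 of 44, tRNA charging and modification with 6 of 32, and nucleotide synthesis with 5 of 39. In that order they were 4.24%, 4.24%, 3.64% and 3.03% of the placed members. The lists cover 0.794%, 1.06%, 0.770% and 0.939% of all placed promoters. Another 7, 3, 6 and 5 of their regions had low TAF1 with Spt3 below 0. The 120 regions of cytosolic ribosomal protein genes gave 2 members (RPL1A and RPS28B), 1.21% of the placed members beside 2.89% of all placed promoters. The 39 chaperone promoters gave 2 (AHA1 and SSZ1), 1.21% beside 0.939%, so they were not rarer among the members. The proteasome, sterol and plasma membrane transporter lists gave 0 of 34, 39 and 82. They cover 0.818%, 0.939% and 1.97% of all placed promoters. The rule used these TAF1 and Spt3 values, so the counts describe the membership.

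The region between NSA2 and LCP5 had the lowest TAF1 of this kind. NSA2 acts in assembly of the large ribosomal subunit and LCP5 in processing of the small subunit rRNA. TAF1 was -1.44, -1.89, -0.70 and -0.93 on arrays A to D, and Spt3 was 1.21, 0.01, 0.22 and 0.08 on arrays B to E. All 4 TAF1 values lay below all 4 Spt3 values, which the choice of regions by these values favours. The Spt3 mean of 0.38 came mostly from array B.

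Across the divergent start of GCD10, a tRNA methyltransferase subunit, and NOP2, an rRNA methyltransferase, TAF1 was -1.11, -1.88, -0.41 and -0.89. Spt3 there was 0.09, 0.09, -0.21 and 0.13, close to 0 on all 4 arrays. UTP18, a subunit of the small subunit processome, had TAF1 at -1.34, -1.78, -0.47 and -0.84 and Spt3 at 0.02, -0.12, 0.16 and 0.19. In both regions the groups of arrays did not overlap, which the choice of regions by these values favours.

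PUS1 encodes a pseudouridine synthase and NIP7 a factor of large subunit assembly. Their shared region had TAF1 at -1.24, -1.37, -0.80 and -0.84 and Spt3 at 0.45, 0.22, 0.96 and 0.30, above 0 on each array. MAK16, of large subunit assembly, had TAF1 at -1.28, -1.34, -0.52 and -0.79. Its Spt3 values were -0.38, -0.19, 1.70 and 0.03, so that array D alone put its mean above 0. At DUS3-SFP1, a tRNA dihydrouridine synthase gene facing the gene of a transcription factor of ribosome synthesis, TAF1 was -0.83, -2.69, -0.31 and -0.41 and Spt3 was -0.33, 0.12, 0.23 and 0.42. There array B held the lowest TAF1 value by a wide margin.

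**Figure D2:**
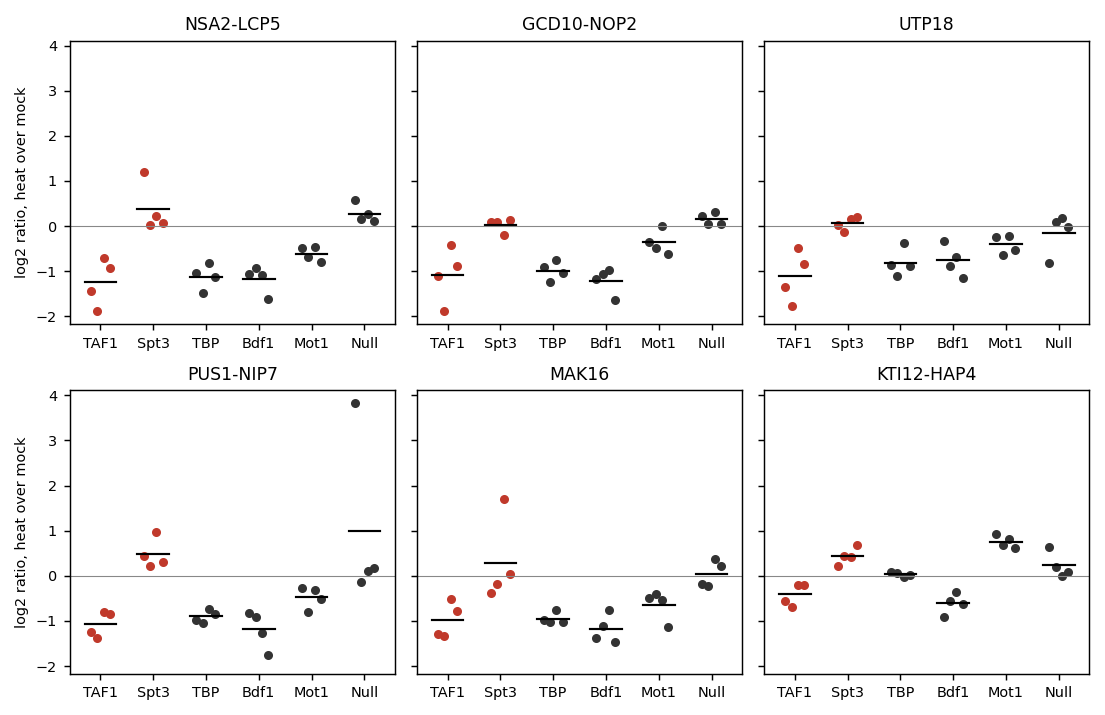
Log2 ratios of heat shocked over mock cells on each array (points) and their mean (bar) for 6 regions, with TAF1 and Spt3, which chose the regions, in red and the other groups in black. TBP and Bdf1 lie below 0 on all 4 arrays in 5 of the regions, while KTI12-HAP4 has TBP near 0 and Mot1 above 0.

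TBP was lower after heat shock at 62 of the 205 members that were tested and higher at 0, where 4.01% of all 6392 tested regions were lower and 8.35% higher (limma, adjusted p under 0.05). At an unadjusted p under 0.05, 1 member was higher. Of the tested members with a placed promoter, which were all but 1 of them, 59 or 36.0% were lower and the median TBP change was -0.28, against 0.04 over all 4127 promoter regions. On the single arrays the median over these promoters was -0.34, -0.40, -0.26 and -0.28, below 0 in each channel order. Placed regions with low TAF1 and Spt3 below 0 gave 67 lower and 0 higher of 231, with a median of -0.24. The difference between the sets was not tested. Leaving out TBP array A or B lowered the count at members from 62 to 36 or 37, and array weights raised it to 122 lower and 3 higher. Without centring the arrays, 0 members were called in TBP.

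At NSA2-LCP5, TBP was -1.04, -1.48, -0.82 and -1.14 on arrays A to D. It was the largest called fall, at -1.12 ± 0.17 (SE; limma adjusted p = 0.000151). In the Null strain the same region was at 0.58, 0.16, 0.26 and 0.10, all above 0, and no Null value overlapped the TBP values. After it and CIN2 came GCD10-NOP2, with TBP at -0.91, -1.23, -0.75 and -1.05 and a fitted change of -0.99 ± 0.13 (limma adjusted p = 3.98e-05).

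MAK16 had TBP at -0.99, -1.02, -0.75 and -1.03, a fall of 0.95 ± 0.22 on the log2 scale (limma adjusted p = 0.00489). SDA1, which acts in large subunit assembly and export, had TBP at -0.92, -0.78, -0.78 and -0.78, the tightest of the large falls (limma adjusted p = 8.86e-05). UTP18 had TBP at -0.87, -1.10, -0.38 and -0.89 (limma adjusted p = 0.00235). KRE33, an acetyltransferase of the small subunit rRNA, had TBP at -0.88, -1.05, -0.38 and -0.76 (limma adjusted p = 0.00141). In these 4 regions every TBP value was below -0.3, the value that defined low TAF1. In the contrast of TBP with the Null strain, SDA1 and KRE33 were called lower (limma adjusted p = 0.00131 and 0.00931). MAK16 and UTP18 were not called in that contrast (limma adjusted p = 0.0509 and 0.0914).

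The call at CIN2, a tubulin folding factor gene, depended on single arrays. TBP there was -3.81, 0.30, -0.51 and -0.24 (limma adjusted p = 0.0414). Without array A the fitted change was -0.22 (limma adjusted p = 0.597), and the call was also lost without array D (limma adjusted p = 0.0640). PUS1-NIP7 had TBP at -0.98, -1.04, -0.74 and -0.85, all in a narrow range, and was not called (limma adjusted p = 0.114). The Null values of that region, which enter the same fit, were 3.82 on array A and -0.14, 0.10 and 0.17 on the others, and their part in the missed call was not tested. DUS3-SFP1 had TBP at -0.47, -0.61, -0.51 and -0.20 and was not called (limma adjusted p = 0.208).

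The ribosome biogenesis promoters held 24 of the 59 TBP calls at placed members. TBP was lower at 24 of the 39 ribosome biogenesis members, with a median of -0.50, and at 35 of the other placed members tested (28%), with a median of -0.23. The 37 promoters of the same list with Spt3 below 0 gave 28 lower and a median of -0.48. At the 34 whose TAF1 lay above the threshold, TBP was lower at 0 and the median was -0.11.

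Bdf1 showed the largest counts. It was lower at 79 of 205 members and higher at 0, where 7.81% of all regions were lower and 8.42% higher, and 3 members were higher at an unadjusted p under 0.05. Among placed members 72 or 43.9% were lower, with a median change of -0.38, and the medians on arrays A to D were -0.39, -0.29, -0.42 and -0.46. In the set with Spt3 below 0, 101 of 231 were lower and the median was -0.33. The ribosome biogenesis members gave 30 lower of 39, at a median of -0.59. Without array C 43 members were lower and 1 higher, without array D 50 were lower, and without centring the arrays 0 were called. Heat shocked DNA was in channel 2 on 3 of the 4 Bdf1 arrays, so the channel effect is less balanced than for TBP.

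The 5 largest called falls in Bdf1 were at promoters of genes of ribosome assembly or tRNA modification. NSA2-LCP5 had Bdf1 at -1.06, -0.94, -1.08 and -1.61 (limma adjusted p = 0.000139), and GCD10-NOP2 had -1.18, -1.07, -0.98 and -1.64 (limma adjusted p = 6.27e-06). MAK16 had -1.38, -1.12, -0.75 and -1.47 (limma adjusted p = 0.00126). The other two were RRP3-SSF1, a helicase gene facing a gene of large subunit assembly, at -0.73, -0.99, -1.63 and -1.34, and PUS1-NIP7, at -0.82, -0.92, -1.26 and -1.76. In each of the 5, Bdf1 was below 0 on all 4 arrays, and for PUS1-NIP7 the call was the weakest (limma adjusted p = 0.0397).

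RPF1, of large subunit assembly, had Bdf1 at -0.88, -1.04, -1.0 and -1.29, and RPC25-LTV1, an RNA polymerase III subunit gene facing a gene of small subunit maturation, had -0.76, -1.22, -0.80 and -0.79. RPC25-LTV1 also had TBP at -0.73, -0.60, -0.71 and -0.74, with little difference between arrays. DBP2, an RNA helicase gene, had Bdf1 at -0.37, -0.29, -0.33 and -0.48 and TBP at -0.15, -0.79, -0.99 and -0.74. All 3 regions were called lower in both TBP and Bdf1. In the contrast with the Null strain, RPF1 was not called in TBP (limma adjusted p = 0.11), while its Bdf1 fall and both falls at the other regions were.

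Both TBP and Bdf1 were lower at 43 of the placed members, and TBP, Mot1 and Bdf1 together at 16, among them NSA2-LCP5, GCD10-NOP2, MAK16, BRX1-MDM20, MTR4 and PWP2. TBP alone was lower at 14, among them RPC31, RRN3 (an RNA polymerase I factor) and RPL1A. Bdf1 alone was lower at 25, among them NOP9, UTP10, RIX1 and TIF11. None of the 3 factors was called at 68. These combinations were not counted over all tested regions, so the counts describe the members only. Across the placed members the TBP and Bdf1 changes had a Spearman rho of 0.44, below the 0.58 over all promoter regions, where the points share the fitted channel effect.

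**Figure D3:**
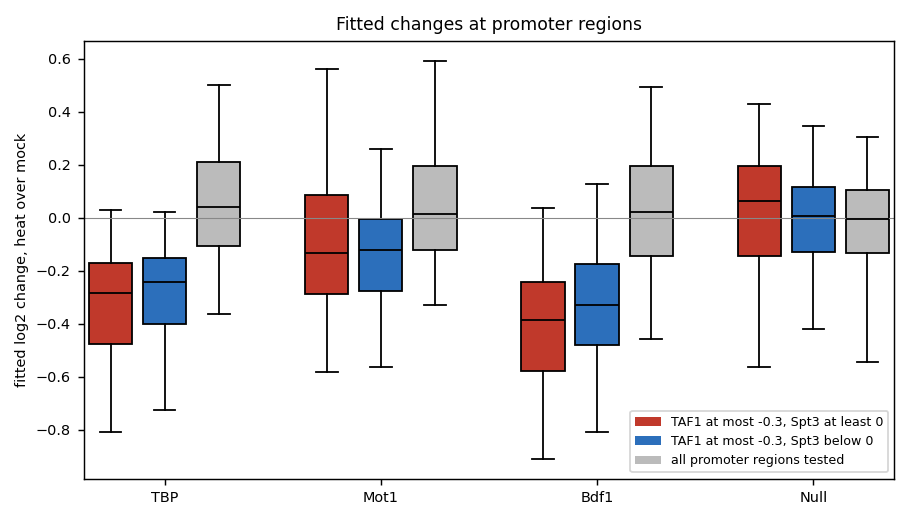
Fitted log2 changes of TBP, Mot1, Bdf1 and the Null strain at promoter regions with low TAF1 and Spt3 at or above 0 (red), with low TAF1 and Spt3 below 0 (blue) and at all tested promoter regions (grey). Boxes span the quartiles with the median as a line and whiskers the central 90%, and the TBP and Bdf1 boxes of both low TAF1 sets lie below 0 while the Null boxes span it.

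Mot1 went both ways. It was lower at 27 of 205 members and higher at 7, where 4.18% of all regions were lower and 8.57% higher, so the share of higher members was below the background. All 27 lower regions were placed, and the median over placed members was -0.13, with array medians of -0.19, -0.16, -0.15 and -0.13. The 34 calls came down to 22 without array C and to 17 without array D. Mot1 was lower at 18 of 66 regions between divergent genes and at 9 of 98 regions of 1 promoter. Its calls were not counted over all regions of either kind. Heat shocked DNA was in channel 1 on 3 of its 4 arrays, an imbalance opposite to that of Bdf1. With Spt3 below 0, 39 of 231 were lower and 0 higher.

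TRM112, the activator of several RNA and protein methyltransferases, had Mot1 at -0.88, -0.32, -0.81 and -1.06, the largest called fall (limma adjusted p = 3.34e-05). RBG1-FUN12, a translation GTPase gene facing that of initiation factor eIF5B, had Mot1 at -0.89, -0.63, -0.60 and -0.71 (limma adjusted p = 0.000165). TBP and Bdf1 were not called there, at -0.29 and -0.19. PRT1, a subunit of initiation factor eIF3, likewise had Mot1 at -0.12, -0.21, -0.34 and -0.41, a called fall without one of TBP or Bdf1. In all, 5 placed members showed that pattern, the other 3 being SPB4-DEG1, SEC1-TRM82 and PZF1-RPO26. Its share over all regions was not counted.

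KTI12-HAP4 was the placed region with the largest called rise in Mot1, which holds relative to the array median: without centring, the Mot1 change of all regions has a median of -1.16 and this region is at -0.43, BDF1 at -0.52 and ESBP6-NAF1 at -0.65. KTI12 acts with Elongator in tRNA modification, and HAP4 is the regulated activator of respiratory genes. Mot1 was 0.92, 0.68, 0.81 and 0.63 (limma adjusted p = 2.64e-05), while Bdf1 was -0.90, -0.56, -0.36 and -0.62 (limma adjusted p = 0.000344). TBP was 0.08, 0.06, -0.03 and 0.01, with no call. TAF1 there was -0.55, -0.69, -0.21 and -0.20 and Spt3 was 0.21, 0.44, 0.41 and 0.67. No array overlapped between these factors, a separation that the choice of regions by these values favours.

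ESBP6-NAF1, a transporter-like gene facing a gene of snoRNA particle assembly, had the same order. Its Mot1 values were 0.72, 0.70, 0.39 and 0.35 (limma adjusted p = 0.0198) and its Bdf1 values -0.60, -0.11, -0.55 and -0.56 (limma adjusted p = 0.0465). TBP was -0.03, 0.00, 0.16 and -0.15, on both sides of 0. HHO1-NAN1 was also called higher in Mot1 and lower in Bdf1, but there TBP was lower as well. Against Null the Mot1 change of HHO1-NAN1 was 0.16 and not called (limma adjusted p = 0.369). Of the placed members, 6 were called higher in Mot1 and 2 in the contrast of Mot1 with Null, where 8.57% and 5.02% of all regions were.

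The promoter of BDF1 itself was a member. TAF1 was -0.66, -1.27, 0.26 and -0.07, on both sides of 0, and Spt3 was 0.68, 0.40, 0.30 and 0.52, above 0 on every array. Mot1 was 0.28, 1.16, 0.59 and 0.66, a called rise (limma adjusted p = 0.0277), and TBP was 0.48, 0.02, 0.16 and 0.12, not called. BDF1 RNA was at -0.06 and 0.17 on the heat arrays. Of the list of TFIID and SAGA subunits and TBP regulators, 2 other regions of 36 were members, TAF8-DAT1 and TAF6-NSA1, the last with 3 values for either factor.

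The Null strain showed 0 calls at the 205 members, where 1 region of 6392 was called in either direction, a share of 0.0156% each. At an unadjusted p under 0.05, 45 members passed, or 22.0%, beside 19.9% of all regions. Its array medians over placed members were 0.13, 0.06, 0.04 and 0.07. In the contrast of each factor with Null, TBP was lower at 41 members and higher at 0 (2.1% and 4.87% of all regions), Bdf1 was lower at 55 and higher at 0 (3.97% and 4.74%), and Mot1 was lower at 25 and higher at 3 (1.94% and 5.02%). Mot1 calls against Null fell from 28 to 14 without Null array A, to 16 without Mot1 array B or D and to 17 without Mot1 array C. The Null calls themselves went from 0 to 21 without Null array C and to 11 without Null array D. Input DNA gave 0 calls at the members by limma, and 0 at an unadjusted p under 0.05.

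RNA of the genes at these promoters fell more often than it rose. Of the 231 genes at the placed regions, 216 were tested, and 135 fell while 14 rose, where 18.9% of all 6772 probes fell and 18.2% rose (limma, adjusted p under 0.05). The median change was -0.95, against 0.01 over all probes. For the set with Spt3 below 0, 119 of 258 genes fell and 28 rose, with a median of -0.45, and the difference between the sets was not tested. RNA was measured on 2 heat arrays, which were at r = -0.68 as deposited with opposite channel order, and its direction rests on the rise of chaperone RNA. With arrays scaled to equal spread 62 genes fell and 6 rose, and without heat array A or B 92 or 74 fell and 7 or 6 rose.

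DBP2 RNA had the largest fall, at -3.64 and -4.10 on the heat arrays and 0.21 and 0.12 on the mock arrays. URA7, which makes CTP, was at -3.64 and -3.74 with mock arrays at -0.29 and 0.07. DRS1, a helicase of large subunit assembly, was at -3.24 and -3.51 with mock arrays at -0.02 and 0.19. For all 3 the heat arrays lay far below the mock arrays, with limma adjusted p of 4.69e-05, 3.86e-05 and 4.82e-05.

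NIP7, MTR4 (the helicase of the nuclear exosome), LTV1, BRX1 and SDA1 followed, with fitted changes of -3.21, -3.17, -3.11, -3.03 and -3.03. All 8 of these largest falls were called with an adjusted p of at most 7.89e-05. Of the 41 ribosome biogenesis genes measured, 40 fell and 0 rose, with a median of -1.66, and RRP9 at -0.63 was the exception. Counting all genes that share the regions, 49 of 57 fell at the member promoters of this list, 42 of 49 at those with low TAF1 and Spt3 below 0, and 34 of 48 at those with TAF1 above the threshold, with medians of -1.46, -1.97 and -1.36. RNA thus fell at the last set as well, where TBP was called at 0 regions.

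**Figure D4:**
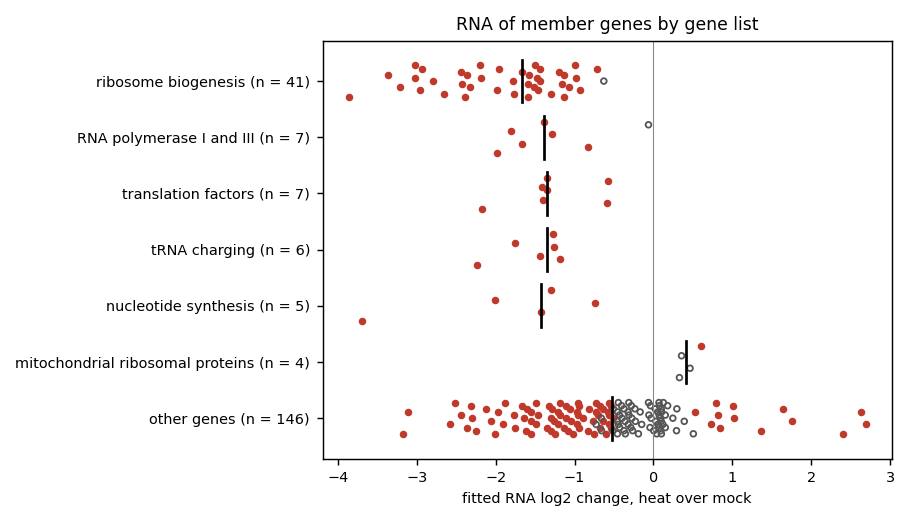
Fitted RNA log2 changes of the member genes by gene list, with called genes filled, genes that were not called open and the median as a bar. The medians of the ribosome biogenesis, RNA polymerase I and III, translation, tRNA and nucleotide lists lie between -1.66 and -1.35, and that of the mitochondrial ribosomal proteins lies above 0.

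Genes of the next 4 lists by number of members fell for the most part. Of the RNA polymerase I and III genes 6 of 7 fell, led by RPC31 at -1.99 and RPC34 at -1.81, and PZF1, the 5S rRNA factor TFIIIA, was at -0.06. The translation factor list fell at 7 of 7 genes, among them TIF11 (initiation factor eIF1A) at -1.41, GCD11 (a subunit of eIF2) at -1.40 and PRT1 at -1.35. That list also holds GCD10, the tRNA methyltransferase subunit named above, which was at -2.17. All 6 genes of tRNA charging and modification fell, led by TRM82 at -2.24 and DUS3 at -1.76, as did all 5 of nucleotide synthesis. The 4 mitochondrial ribosomal protein genes gave 0 falls and 1 rise, of MRPL11 at 0.61, with its heat arrays at 1.13 and 0.09. The 3 genes of the list of TFIID and SAGA subunits and TBP regulators gave 0 falls and 1 rise, at a median of 0.06. Of the 2 chaperone genes 1 fell and 1 rose, and the single genes of the environmental stress, respiration, glycolysis, cell cycle and histone lists gave 0 calls.

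RPC31 joined the readouts at 1 promoter. TBP there was -0.56, -0.43, -0.37 and -0.09 (limma adjusted p = 0.0276), and its RNA was -2.06 and -1.92 on the heat arrays. Mot1 and Bdf1 were not called, at -0.23 and -0.28. MAK16, with the largest called Bdf1 fall of the members, had RNA at -1.38 and -2.16, above both values of DBP2, whose Bdf1 change was -0.36.

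Of the 96 regions of 1 promoter with both values, TBP and RNA changes ranked together with a Spearman rho of 0.47, close to the 0.44 over all 2496 such regions. These points share the arrays and the placement of regions, which was itself chosen with the relation of TBP and RNA in view. The relation left room for exceptions such as BMT5, an rRNA methyltransferase gene, with TBP at -0.01 and RNA at -2.25. BUD21, of the small subunit processome, had both below 0. Its TBP was at -0.93, not called, and its RNA at -0.71, called lower (limma adjusted p = 0.0486). At BUD21 the Null strain was at -1.08, and TBP against Null was 0.14 (limma adjusted p = 0.916).

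**Figure D5:**
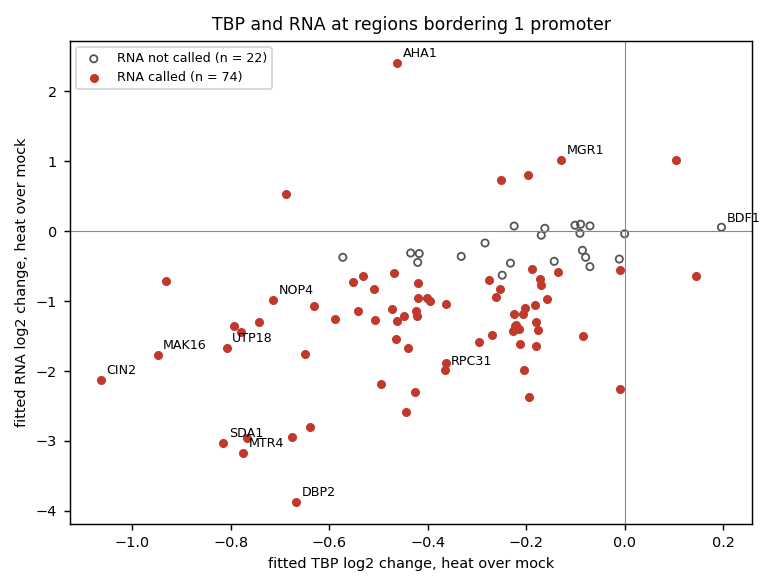
Fitted TBP log2 change (horizontal) and fitted RNA log2 change (vertical) for the 96 members bordering 1 promoter with both values, filled where the RNA change was called. Most points have both values below 0, and AHA1 lies apart with TBP below 0 and RNA above it.

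At divergent members, the calls of both genes could be set side by side. Among 54 such regions with RNA of both genes, both fell at 17 and 1 fell while the other was not called at 26. Neither was called at 6, 1 rose while the other was not called at 3, and 1 fell while the other rose at 2. The difference between the genes of a pair was not tested, and such pairs were not counted over all divergent regions. Those 2 regions were COX17-DRS1, at 0.84 for the copper chaperone gene COX17 and -3.37 for DRS1, and ESBP6-NAF1, at 1.37 and -1.55. At URA7-MRPL16 the values were -3.69 for URA7 and 0.36, not called, for the mitochondrial ribosomal protein gene. TBP at that region was -0.36, -0.55, -0.15 and -0.56 (limma adjusted p = 0.0253), a single value for both genes.

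SFP1 and HAP4, transcription factor genes that share their regions with DUS3 and KTI12, were at 0.15 and 0.12 in RNA with no call. Their partners fell, at -1.76 and -1.24. TOD6, a repressor of ribosome biogenesis genes, fell itself, at -1.91, from a region called lower in TBP and Bdf1. NAN1, of the small subunit processome, was at -2.44 beside -0.36, not called, for the linker histone gene HHO1.

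Of the 14 genes that rose, 8 lay at regions with all TAF1 and Spt3 values. FMP16 RNA was 3.27 and 2.11 on the heat arrays, AHA1 (an Hsp90 cochaperone) 2.25 and 2.56, and PST2 (a flavodoxin-like protein) 2.14 and 1.38, but each of these regions lacked at least 1 TAF1 value and FMP16 was not tested for the other factors. With complete values remained TAF8, RIM8 (of the pH response), ESBP6, NTG1 (a DNA repair glycosylase), YME2, COX17, DMC1 and MRPL11. MGR1, CYC3 and ILT1 each lacked 1 Spt3 value. None of these regions was called higher or lower in TBP.

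TAF8, a subunit of TFIID, had the largest rise among regions with complete values. Its RNA was 2.60 and 2.66 on the heat arrays against -0.04 and -0.43 on the mock arrays (limma adjusted p = 0.000122). The region it shares with DAT1 had TAF1 at -0.29, -0.93, -0.04 and -0.27, Spt3 at 0.13, 0.12, -0.08 and 0.26 and TBP at -0.25, -0.45, -0.04 and -0.18, below 0 on every TBP array but not called (limma adjusted p = 0.144). Mot1, at -0.40, 0.07, -0.29 and -0.40, and Bdf1, at -0.51, -0.24, -0.21 and -0.47, were called lower with adjusted p of 0.0454 and 0.0477. DAT1 RNA was at -0.73 and not called (limma adjusted p = 0.0536).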

How the data were processed

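Per array, the authors deposited 1 log2 ratio between channels for each probe. Scanning used a GenePix 4000A and image analysis GenePix Pro 4.0, per the labels. Nothing used here gives the background correction, normalization or spot filters. Members and gene lists were chosen with earlier results of these data known.

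Each array was centred on its median and turned to heat shocked over mock cells, reading ChIP ratios as channel 1 over channel 2 and RNA ratios as channel 2 over channel 1. These directions, and the placement of a region to the right of its named gene, were chosen because TBP then ran with RNA and chaperone RNA then rose. Genes were named by the platform annotation and a RefSeq table (of assembly R64, for gene symbols and gene order). Coordinates and promoter sequences were not used here.

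With limma 3.58.1 in R 4.3.3, each region's fit over all 28 ChIP arrays held 1 heat coefficient per group and 1 channel effect, for the 6392 regions with at least 3 values in every group. This left out 32 of the 237 members. RNA was fitted likewise over 4 arrays for 6772 of 7056 probes. Tests were two-sided, adjusted by the Benjamini-Hochberg method over all regions or probes and called under 0.05, and SE is the moderated standard error. The script was tested on simulated data. Named members were those of lowest mean TAF1, highest mean Spt3, largest called change per readout, nearest the thresholds, or largest in RNA within a list. The members of highest Spt3 had no gene name and are not described singly. The precision is limited by the number of arrays. The main fit did not pair arrays by replicate letter. Of 78 same-letter correlations of deviations between groups, 9 were over 0.1, and they ran from -0.33 to 0.29. A fit with a replicate block, which changed the shares called, is given below.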

Additional observations from a re-analysis of the deposited data

Results flagged for a closer look

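Of 67 groups of 4 arrays looked at, 9 held 1 array whose gap to the nearest other passed Dixon's critical value as a share of the group's range, where chance flags about 1 in 20. These were Spt3 array B at NSA2-LCP5 (1.21), Spt3 array D at GCD10-NOP2 (-0.21), TBP array C at MAK16 (-0.75), TBP array A at SDA1 (-0.92), Bdf1 array B at ESBP6-NAF1 (-0.11), Bdf1 array B at RPC25-LTV1 (-1.22) and Null array A at PUS1-NIP7 (3.82). Over the placed members, the median of Spt3 array B (0.24) and of input array B (0.036) stood apart in the same way.

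The response differed from that of the Null strain, by the contrast of the limma fit, at 41 members for TBP, 28 for Mot1 and 55 for Bdf1. All 41 and all 55 were lower than Null, and 25 of the 28 were.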

How the results depend on the processing

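The rule gave 230 to 342 members when 1 TAF1 or Spt3 array was left out, 121 with stricter thresholds (TAF1 at most -0.4 and Spt3 at least 0.1), and 204 from fitted coefficients, of which 200 were among the 237. The shares below are of tested members called in either direction, with every array TBP 30.2%, Mot1 16.6%, Bdf1 38.5%, Null 0% and RNA 69.0%. Leaving out 1 array gave TBP 17.5% to 26.8%, Mot1 8.29% to 13.5%, Bdf1 21.3% to 36.4%, Null 0% to 10.2% and RNA 37.2% to 66.2%, where a lone heat array is assumed to vary like the others. For the contrasts with Null it gave TBP 13.6% to 20.9% (20% with every array), Mot1 6.80% to 14.6% (13.7%) and Bdf1 17.9% to 28.2% (26.8%). The replicate block gave TBP 23.4%, Mot1 7.80%, Bdf1 30.7%, Null 0% and RNA 46.3%, and against Null 20.5%, 9.27% and 24.4%. Arrays not centred gave TBP 0%, Mot1 79.5%, Bdf1 0% and Null 67.3%, with Mot1 at -0.43 at KTI12-HAP4, -0.52 at BDF1 and -0.65 at ESBP6-NAF1 in place of rises. Array medians then enter the values: the median change over all regions became 0.18 for TBP, -1.16 for Mot1, -0.20 for Bdf1 and -0.91 for Null. Array weights gave TBP 61.0%, and scaling to equal spread gave Null 1.46% and RNA 31.5%. Members of 1 promoter only, which are fewer, gave 39 TBP calls (39.8%), 11 for Mot1 (11.2%), 44 for Bdf1 (44.9%) and 75 for RNA (77.3%). Chosen after seeing the data, the 58 placed members kept in all 8 leave-one-out sets gave TBP 56.9%, Mot1 31.0%, Bdf1 56.9% and RNA 77.8%. Also chosen so, leaving out Null arrays A and B, which had the widest spread, gave TBP 11.1% and Mot1 2.90% against Null. Single named values kept direction and call in 488 cases, lost the call in 109, gained it in 6 and changed sign in 3. Apart from the centring, the cause of these changes was not tested.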
